A study of Homo sapiens with 6 samples.

Results

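The genes described here are EGR1, EGR2, EGR3, IER2, IER3, IER5, NR4A1, NR4A2 and ATF3, which belong to the immediate early genes, together with SRF, a transcription factor that controls many of them. They were chosen by name, and the transcript identifiers in the deposited counts were matched to gene symbols. Of the 10 genes, 9 had a counted transcript, among 37339 matched transcripts of 42371 that each library lists. No counted transcript was matched to EGR2, and no level is given for it.

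The study set nascent transcription beside the amount of RNA in K562, an established chronic myelogenous leukemia cell line. PRO-seq, which sequences the 3′ ends of RNA still held by RNA polymerase, was carried out in 2 libraries (replicates 1 and 2), and total RNA-seq after depletion of rRNA in 4 libraries (replicates 1 to 4). The cells of all 6 libraries received no treatment and grew in RPMI-1640 with fetal bovine serum, penicillin and streptomycin. They came from 1 flask, so errors and p-values measure the spread between libraries and not between cultures.

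Immediate early genes are switched on within minutes of a growth factor or stress signal, from factors already present in the cell. One well-known route runs through the ERK kinases to ELK1 and related factors, which act with SRF at CArG boxes in the promoters of responsive genes. Their mRNAs are commonly short-lived, and several carry AU-rich elements in the 3′ untranslated region, to which decay factors of the ZFP36 family bind. K562 cells carry the BCR-ABL1 fusion kinase, and fetal bovine serum contains growth factors.

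The promoters with a CArG box are shown because this is the element to which SRF is known to bind. Promoter sequences came from RefSeq (GRCh38.p14) and covered 250 bases before to 50 bases after a transcription start, with 12 such windows for 7 of the genes (EGR1, EGR2, IER2, IER5, NR4A1, ATF3 and SRF). CArG boxes, in capitals, were found in the windows of EGR1, EGR2 and SRF. The boxes of EGR1 begin 105 and 83 bases upstream of its start, those of SRF 30 and 10 bases upstream, and that of EGR2 71 bases upstream. The sequences run 5′ to 3′ on the strand of the gene, from chr5:138465362-138465417 (plus strand) for EGR1, chr6:43171227-43171280 (plus strand) for SRF and chr10:62816416-62816449 (minus strand) for EGR2.
EGR1: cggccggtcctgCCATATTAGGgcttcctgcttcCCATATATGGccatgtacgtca
SRF: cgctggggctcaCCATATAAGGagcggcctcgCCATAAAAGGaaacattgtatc
EGR2: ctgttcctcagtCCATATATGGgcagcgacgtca

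A CArG box was present in 1.29% of all 35116 promoter windows, and 0.0313% held 2 or more, as those of EGR1 and SRF did. The box reads as a CArG box on either strand and was searched without mismatches. CCGGAA, a core bound by ETS factors such as ELK1, was searched on both strands and stood in the windows of IER2, IER5, NR4A1 and SRF, against 17.2% of all windows. TATAAA, on either strand, stood in those of ATF3 and SRF, against 11.5% of all windows, and TGACGTCA, the core bound by CREB and ATF factors, was not among the letters of the 12 windows, against 1.85% of all windows. No match overlapped a match of another of these motifs. A match describes the sequence and does not show binding.

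Further sequences are shown for the AU-rich stretches of the transcripts, which differ between genes that have similar roles. The number of ATTTA pentamers after the stop codon was 10 in IER5, 6 in IER3, 3 in each of EGR3, NR4A1, NR4A2, ATF3 and SRF, 1 in EGR1 and 0 in IER2. The median of 7835 expressed mRNAs with such a region was 2. The longer motif TTATTTATT occurred 3 times, with overlaps, in IER5, 1 time in SRF and in no other of the 9 transcripts, against 9.05% of expressed mRNAs with at least 1. The windows of 30 bases below, for 5 of the transcripts, are those with the most TTATTTATT and then the most ATTTA, read 5′ to 3′ from GENCODE transcripts, with ATTTA or TTATTTATT in capitals.
IER5: ggtgtcttcctTTATTTATTTATTTATTTA
SRF: tggcccaagggatggcaccacTTATTTATT
IER3: ttgctcctaattaatATTTAtatgtATTTA
NR4A1: cATTTAtatttgtgtattttcctggATTTA
EGR1: tctatttttttaactgaaaatgtaaATTTA

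The RNA-seq libraries held between 5732780 and 9002746 counts on transcripts and the PRO-seq libraries 6993816 and 7245632. Raw counts were divided by length and scaled to the library total (TPM), with the exon length for RNA-seq and the transcript span minus 1000 bp for PRO-seq, since 500 bp at each end were not counted. All 12 erythroid and K562 genes fixed as markers were present in RNA-seq, between 13.2 and 6287 TPM. In PRO-seq they ranged from 0 TPM for HBE1 and 0.221 TPM for HBG2 to 663 TPM for TFRC. Of 19 markers of other cell types, 13 were matched and 6 exceeded 1 TPM (CD3D, LYZ, COL1A2, EPCAM, KRT8 and KRT18, at most 789 TPM for KRT18). Their part in the results was not tested, and fewer cells that transcribe a gene cannot be told apart from less RNA per cell. RNA-seq replicates 1 and 3, and replicates 2 and 4, were close (chi-square per degree of freedom 1.13 and 1.12, against 1.75 to 2.13 in the other RNA-seq pairs), and each was kept as a replicate. Summing the close pairs changed no call for the 9 genes.

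EGR1, a zinc finger transcription factor induced by growth factors, had the highest nascent transcription of the 9 genes together with a low RNA level. Its transcript (ENST00000239938 of ENSG00000120738) has 2 exons on chr5:138465479-138469303 of GRCh38. In PRO-seq it had 1912 and 1901 counts, or 2617 and 2553 TPM, with a mean of 2585 TPM ± 45.7 (SD, n = 2). Only 10 of 8733 expressed mRNAs had more, where expressed means that PRO-seq exceeded 10 TPM and RNA-seq exceeded 1 TPM over the summed libraries. In RNA-seq it had 47, 37, 28 and 28 counts in replicates 1 to 4, or 3.85, 2.87, 3.42 and 2.98 TPM, with a mean of 3.28 TPM ± 0.448 (SD, n = 4). The 4 RNA-seq values lay within 1.34-fold of each other, and 5.44% of expressed mRNAs had a lower RNA level.

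EGR3, a relative of EGR1 with the same type of DNA-binding domain, was near the detection limit in both assays. It had 2 and 5 PRO-seq counts (1.60 and 3.93 TPM) and 2, 1, 1 and 0 RNA-seq counts (0.114, 0.0540, 0.0848 and 0 TPM). The 4 RNA-seq counts in all have an exact 95% Poisson interval of 1.09 to 10.2 counts, and the 7 PRO-seq counts one of 2.81 to 14.4, which cover counting error only. An antisense lncRNA gene (ENSG00000253125) overlaps 164 bp of its exons and had 89 PRO-seq counts and 0 RNA-seq counts. Whether reads were counted by strand is not stated, so the few counts of EGR3 are uncertain.

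EGR2, which completes the trio of EGR genes, could not be assigned a level. The counted transcript over its locus, ENST00000493899, belongs to a lncRNA gene (ENSG00000289487) on the same strand at chr10:62814433-62919900 of GRCh38 and shares 145 bp of exon with the main EGR2 transcript. That transcript had 17 and 32 PRO-seq counts and 0 counts in each of the 4 RNA-seq libraries. Its assignment to a lncRNA gene is that of GENCODE v44, and the authors' own annotation may differ. Whether these counts come from EGR2 was not tested, so they are not used as a value for EGR2.

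The IER genes encode small proteins without close structural relation to the EGR factors. IER2, a nuclear protein induced by growth factors, had the highest RNA level of the 9 genes, with 1043, 1020, 709 and 713 RNA-seq counts, or 127, 118, 129 and 113 TPM. In PRO-seq it had 301 and 378 counts, or 332 and 410 TPM, so that it ranked next to EGR1 in nascent transcription and led in RNA. An antisense lncRNA gene (ENSG00000267598) covers 35.8% of its exon length on chr19:13150411-13154911 and held 6 RNA-seq and 1 PRO-seq counts. Whether reads were counted by strand is not stated, and the effect of this overlap on the counts of IER2 was not tested.

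IER3, known for its part in apoptosis and survival signalling, had 140, 143, 90 and 97 RNA-seq counts, or 26.7, 25.8, 25.5 and 24.0 TPM. In PRO-seq it had 11 and 18 counts, or 122 and 195 TPM. The RNA-seq values were within 1.11-fold of each other, whereas the PRO-seq values differed by 1.61-fold. Its transcript is 1350 bp long with 1 exon (chr6:30743199-30744548), so only 350 bp was left for PRO-seq. With 500 bp taken off instead of 1000 bp, its PRO-seq level was 78.7 TPM in place of 158 TPM ± 52.0 (SD, n = 2).

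IER5, a regulator of the heat shock response, is also a gene of 1 exon (chr1:181088700-181092900). It had 825, 808, 577 and 664 RNA-seq counts, or 50.5, 46.9, 52.6 and 52.7 TPM, and 118 and 104 PRO-seq counts, or 143 and 123 TPM. Both assays were tight for this gene, with SDs of 2.74 TPM (n = 4) and 13.7 TPM (n = 2).

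The NR4A genes encode orphan nuclear receptors, and the pair differed from each other mainly in nascent transcription. NR4A2 had 435 and 441 PRO-seq counts, or 104 and 103 TPM, and 24, 19, 21 and 19 RNA-seq counts, or 2.14, 1.61, 2.79 and 2.20 TPM. NR4A1 had 22 and 28 PRO-seq counts, or 2.38 and 2.98 TPM, and 5, 5, 4 and 3 RNA-seq counts, or 0.497, 0.471, 0.592 and 0.387 TPM. The levels of NR4A2 lay above those of NR4A1 in every library of both assays. The counted transcripts of both (ENST00000409572 and ENST00000360284) start far upstream of the MANE Select transcripts, the reference choice for each gene, which share 43.8% of the PRO-seq window of NR4A2 and 21.2% of that of NR4A1. Division by the longer span gives a lower PRO-seq level for the same counts.

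ATF3, a stress-induced repressor of the ATF and CREB family, had similar TPM in both assays. It had 67, 72, 35 and 54 RNA-seq counts, or 8.99, 9.15, 6.99 and 9.40 TPM, and 123 and 101 PRO-seq counts, or 8.74 and 7.04 TPM. Replicate 3 had the lowest RNA level, and the other 3 libraries lay close together. Its counted transcript (ENST00000366987) spans 55439 bp on chr1:212565334-212620772, of which the MANE Select transcript shares 21.1% of the PRO-seq window.

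SRF, a factor known to act at CArG boxes, had 649, 728, 444 and 514 RNA-seq counts, or 39.4, 41.9, 40.2 and 40.5 TPM. In PRO-seq it had 206 and 229 counts, or 86.2 and 94.0 TPM. Its RNA-seq values were within 1.06-fold of each other, the smallest spread of the 9 genes. The transcript (ENST00000265354) has 7 exons on chr6:43171269-43181506 of GRCh38.

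The order of the genes differed between the assays. In PRO-seq it ran from EGR1 through IER2, IER3, IER5, NR4A2, SRF and ATF3 to EGR3 and NR4A1. The PRO-seq ranges of IER3 and IER5 overlapped, as did those of EGR3 and NR4A1, while the other neighbours did not overlap. In RNA-seq the order was IER2, IER5, SRF, IER3, ATF3, EGR1, NR4A2, NR4A1 and EGR3, and no neighbours overlapped. Each PRO-seq range rests on 2 values.

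The comparison of the assays asks how much RNA a gene had for its nascent transcription. The ratio of RNA-seq to PRO-seq was fitted with edgeR's quasi-likelihood test for all 21621 transcription units (TUs) with at least 10 counts over the 6 libraries. It is given on the log2 scale relative to the median of the 8733 expressed mRNAs, so that 0 marks that median. All 9 genes passed this count minimum, and EGR3 only just, with 11 counts. In the study, such a ratio serves as a relative measure of RNA half-life under an assumed steady state. Whether these genes were at steady state was not tested. The paper's main estimates came from published PRO-seq and poly-A+ RNA-seq, which it found less variable than those from these libraries. The ratio also depends on the speed of elongation and on polymerase pausing, whose parts were not tested, and on the lengths used, for which other choices are given beside the results.

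After Benjamini-Hochberg adjustment over all TUs, 8 of the 9 genes lay below the median expressed mRNA and ATF3 lay above it. By the same test, 55.7% of all TUs and 51.2% of 15069 mRNAs tested lay below, and 25.6% and 33.8% lay above. The median ratio of the 9 genes was -1.81, against -0.57 for all mRNAs tested and -1.12 for all TUs. Of the 6 genes that count as expressed by these thresholds (EGR1, IER2, IER3, IER5, NR4A2 and SRF), 6 lay below and 0 above, against 44.8% and 45.4% of the expressed mRNAs. Centred on the median of all TUs instead, 4 genes lay above (IER2 at 0.18, IER5 at 0.39, SRF at 0.63 and ATF3 at 1.93), 4 lay below and NR4A1 was not called, against 40.8% of all TUs above and 32.9% below with that centre. The direction of IER2, IER5 and SRF therefore holds relative to expressed mRNAs and turns relative to all TUs. Without division by length, IER2, IER3, IER5 and SRF lay above (32.5% of all TUs), ATF3 lay below (56.9% of all TUs), as did EGR1, NR4A1 and NR4A2, and EGR3 was not called.

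EGR1 had the lowest ratio of all 8733 expressed mRNAs in the summed libraries. This set leaves out mRNAs that do not exceed 1 TPM in RNA-seq, so the rank depends on that threshold. SIK1, left out at 0.0155 TPM in RNA-seq with 30.9 TPM in PRO-seq, had a lower fitted ratio of -9.60, which is uncertain for the reason given below. The fitted log2 ratio of EGR1 was -8.98 ± 0.08 (SE), and the 8 ways to pair a single RNA-seq library with a single PRO-seq library gave -9.21 to -8.72. The adjusted p was too small for the software to represent, and was at most 2.6e-37 over the 18 alternatives in processing (edgeR or DESeq2, Benjamini-Hochberg adjustment). For each PRO-seq count there were 0.0367 RNA-seq counts. The next lowest summed ratio was -8.24, in the histone gene H4C15, which is named after its value was seen. In the combinations with RNA-seq replicate 3, 1 expressed mRNA lay below EGR1.

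NR4A2 and EGR3 came next among the 9 genes. The ratio of NR4A2 was -4.96 ± 0.13 (SE; edgeR adjusted p = 4.7e-307), and 34 expressed mRNAs (0.389%) had a lower one in the summed libraries. Divided by the lengths shared with its MANE Select transcript, an alternative added after seeing the data, the ratio was -5.99. This alternative changes the lengths and keeps all counts of the counted transcript, so the shift follows from the lengths. Where in the span the PRO-seq counts lay was not tested. The ratio of EGR3 was -4.55 ± 1.03 (SE; edgeR adjusted p = 1.8e-05), the widest error of the 9 genes. It rests on 4 RNA-seq and 7 PRO-seq counts, and 1 RNA-seq replicate had none. Without division by length, the ratio of EGR3 was -1.26 and the call was lost (edgeR adjusted p = 0.20).

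IER3 and NR4A1 lay at -1.99 ± 0.35 and -1.81 ± 0.43 (SE), with edgeR adjusted p of 2.6e-08 and 4.8e-05. They stood above 11.0% and 12.6% of the expressed mRNAs in the summed libraries. NR4A1 itself passed neither threshold for an expressed mRNA, at 0.483 TPM in RNA-seq and 2.68 TPM in PRO-seq. IER3 moved to -0.76 with 500 bp taken off its span (edgeR adjusted p = 0.020), since 850 bp in place of 350 bp was then left. NR4A1 moved the other way, to -3.90, with the lengths shared with MANE Select. Centred on the median of all TUs, NR4A1 lay at -0.68 with an adjusted p of 0.16 in edgeR.

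IER2, IER5 and SRF lay within 1 log2 unit of the median expressed mRNA. Their ratios were -0.97 ± 0.07, -0.76 ± 0.11 and -0.51 ± 0.09 (SE), with edgeR adjusted p of 4.0e-38, 7.0e-11 and 1.3e-08. All 8 library combinations were below 0 for each of these genes, from -1.22 to -0.75 for IER2, from -0.99 to -0.59 for IER5 and from -0.60 to -0.42 for SRF. They had lower ratios than most expressed mRNAs but were inside the central range, whose quartiles were -1.06 and 1.08. Tested against a 2-fold difference, the edgeR adjusted p was 0.51 for IER2 and 1.0 for IER5 and SRF.

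ATF3 was the exception, at 0.78 ± 0.16 (SE; edgeR adjusted p = 1.1e-06) and above 0 in 8 of 8 library combinations (0.29 to 1.06). It stood above 68.8% of the expressed mRNAs, although its PRO-seq level of 7.89 TPM ± 1.20 (SD, n = 2) was under the threshold of 10 TPM. Its direction depended on the length used, since with the lengths shared with its MANE Select transcript the ratio was -1.34 ± 0.16 (SE; edgeR adjusted p = 3.8e-17). With those lengths and the same counts, all 9 genes lay below the median expressed mRNA, as did 56.2% of 21445 TUs, while 25.3% lay above. For ATF3, NR4A1 and NR4A2 this assumes that the PRO-seq counts lay inside the shared part, which was not tested.

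Properties that did not enter the choice of genes are given beside those of expressed mRNAs. Of the 9 counted transcripts, 5 had 1 or 2 exons (EGR1, EGR3, IER2, IER3 and IER5), as did 5.31% of 7835 expressed mRNAs, whose median was 10 exons. NR4A1 and NR4A2 had 8 exons, SRF 7 and ATF3 4. The G+C content of the whole transcript was 63.0% in IER2 and 60.8% in SRF against a median of 48.0%, and that of ATF3 was 47.9%.

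The number of AU-rich pentamers did not run in the order of the ratios. EGR1, with the lowest ratio, had 1 ATTTA (0.818 per kb, against a median of 1.69 per kb), whereas IER5, near the median ratio, had 10 (3.32 per kb) and the 3 TTATTTATT shown above. IER3 had the highest density, at 6.64 per kb, followed by NR4A1 at 5.34 and NR4A2 at 4.64. Across the 7835 expressed mRNAs with at least 100 bases after the stop codon, the median log2 ratio was -0.59 for the 709 with TTATTTATT and 0.04 for the 7126 without it. IER5 and SRF, which hold the motif, lay at -0.76 and -0.51, and IER2, without any ATTTA, lay at -0.97. Whether the motif affects the ratio was not tested. These are values across genes, which are not independent replicates.

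The 4 genes with the highest RNA levels were set beside the mRNAs most like them by Euclidean distance over log2(TPM + 1) in the 6 libraries. IER2 was nearest to SLC2A3, a glucose transporter (distance 0.303), and YRDC (0.338). The nearest to IER5 were LEMD2 (0.214) and HAPSTR1 (0.221), and the nearest to SRF were TP53BP2 (0.142) and SPG11 (0.155). IER3 lay nearest to HCFC1 (0.428) and TSC22D4 (0.429).

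Other genes of the growth factor response and of related families were described by lists. Of the FOS and JUN family, which forms the AP-1 factor, 7 of 7 were tested and 7 lay below the median expressed mRNA, with a median ratio of -3.13. FOS had the lowest ratio of the family at -5.90 ± 0.26 (SE), with a PRO-seq level of 125 TPM against an RNA-seq level of 1.33 TPM, and FOSL2 the highest at -1.95 ± 0.17. JUND had the highest RNA level, at 57.4 TPM. FOS combined a PRO-seq level above the median of expressed mRNAs (47.5 TPM) with an RNA level below their median (31.2 TPM). So did EGR1, NR4A2 and IER3, FOSL1 and JUN of this family, and several genes of the lists below.

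The listed KLF factors are zinc finger proteins related in their DNA binding to the EGR factors. Of 13 tested (14 named), 13 lay below, with a median of -2.25. They ranged from -3.86 ± 0.11 (SE) in KLF6 to -1.16 ± 0.10 in KLF16, and KLF3 had the highest RNA level of the list, at 31.8 TPM. The list left out KLF1, one of the K562 markers, which had 186 TPM in RNA-seq and 161 TPM in PRO-seq. Its RNA-seq level per PRO-seq level was thus above the median of 0.643 for expressed mRNAs. Of 15 feedback inhibitors of kinase signalling that were tested (16 named), 13 lay below and 0 above, with a median of -2.59. SPRY4, an inhibitor of receptor tyrosine kinase signalling, had the lowest at -4.28 ± 0.10 (SE). SOCS3, an inhibitor of cytokine signalling, had the highest at -0.44 ± 0.21 (edgeR adjusted p = 0.051), and SOCS2, of the same family, had the highest RNA level, at 47.7 TPM.

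Of 27 other growth factor response genes tested (32 named), 25 lay below and 2 above, with a median of -1.82. Those above were SGK1, a kinase, at 1.15 ± 0.15 (SE) and GADD45A, a growth arrest gene, at 0.36 ± 0.10. SIK1, a kinase gene, had the lowest value, -9.60 ± 0.40, at 0.0155 TPM in RNA-seq. The genome holds a near-identical copy of this gene, and since a split of reads between the copies was not tested, the value is uncertain. MCL1, a survival factor, had the highest RNA level of this list, at 299 TPM. The 4 lists described so far contained 2 genes above the median expressed mRNA, against 33.8% of all mRNAs tested. The KLF factors among them were listed by family and not by induction. Of all mRNAs tested, 51.2% lay below.

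Genes that act with or upstream of the 9 genes lay on both sides of the median, as mRNAs in general did. Of 15069 mRNAs tested, 51.2% lay below and 33.8% above, with a median ratio of -0.57. Of 13 partners and regulators tested (14 named), 8 lay below and 3 above, with a median of -0.60. NAB1, a corepressor of EGR1, lay above at 0.66 ± 0.08 (SE), as did ATF1 at 0.80 ± 0.07 and RXRA, a partner of NR4A receptors, at 0.80 ± 0.09. MRTFB, a coactivator of SRF, had the lowest ratio, at -2.29 ± 0.09, and ATF2, a relative of ATF1, had the highest RNA level, at 71.2 TPM. Of 13 ERK cascade kinases tested (15 named), 7 lay above and 5 below, with a median of 0.57, from -3.40 ± 0.06 in RPS6KA5 to 1.82 ± 0.25 in HRAS.

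Of 11 housekeeping genes tested (14 named), 10 lay above the median expressed mRNA, against 33.8% of all mRNAs tested. ACTB lay below, at -1.24 ± 0.06 (SE), as did 51.2% of all mRNAs tested. Their median was 2.28, and EEF1A1, an elongation factor of translation, had the highest RNA level at 7549 TPM. PGK1, a glycolytic enzyme, had the highest ratio at 7.16 ± 0.06, with 822 TPM in RNA-seq. Its PRO-seq level of 8.92 TPM was under the threshold of 10 TPM, so it does not count as expressed. ACTB encodes an actin and is a known target of SRF. The differences between the lists were not tested.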

How the data were processed

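For each library the authors deposited raw HTSeq counts per transcript, without normalization. Per the submitters' processing notes, cutadapt, HISAT2 and HTSeq were used with GRCh38. Neither their versions nor the strand setting of HTSeq is given in the sources used here. Per the labels, the longest transcript of a gene was counted, on exons for RNA-seq and without 500 bp for PRO-seq. Records on no transcript (66.5% to 68.6% in RNA-seq, 86.5% and 88.6% in PRO-seq) were left out, and 801 further records named LRG were at 0. Lengths came from GENCODE v44 on GRCh37, matched by transcript identifier, and the authors' own annotation may have other lengths. Gene and transcript coordinates are those of GRCh38 from the annotation.

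Counts were fitted with edgeR 4.0.16 (R 4.3.3) with TMM normalization, length offsets, its quasi-likelihood test and Benjamini-Hochberg adjustment over 21621 TUs, at an adjusted p of 0.05. DESeq2 1.42.0 was an alternative. Poisson intervals are exact at 95%. Other steps used Python 3.11.15. The fits were checked on simulated data in which every TU had the same length in both assays and few TUs changed. That check therefore does not cover the length offsets. The named genes are the 10 of the choice, list genes with the lowest or highest ratio or the highest RNA level, and the 2 nearest mRNAs of 4 genes. NAB1, ATF1, GADD45A, H4C15 and the K562 markers KLF1, HBE1, HBG2 and TFRC fall outside this rule and were named after their values were seen. The highest RNA level of the kinase list is not reported here. The genes and lists were chosen with earlier results of these data known. Replicate numbers 1 and 2 occur in both assays, and the deviations between them correlated at 0.0114 over the TUs. Counting noise lowers such a correlation, so it cannot show whether libraries of the same number were paired. They were treated as unpaired, and a fit with a replicate block is given below.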

Additional observations from a re-analysis of the deposited data

Results flagged for a closer look

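The RNA-seq level of ATF3 had a library apart from the others. Replicate 3 was at 6.99 TPM and the other 3 libraries were between 8.99 and 9.40 TPM, so that the gap was 0.8293 of the whole range by Dixon's criterion, at its 95% critical value for 4 samples. Of the 9 genes tested in this way in RNA-seq, 1 was flagged, and chance flags about 1 in 20 groups. Without replicate 3, the mean RNA-seq level of ATF3 was 9.18 TPM.

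PRO-seq gave 49 counts on the lncRNA transcript ENST00000493899, which covers the locus of EGR2 and was used in no comparison, with 17 and 32 counts in the 2 libraries. RNA-seq gave 0 counts on it in all 4 libraries. Whether these PRO-seq counts come from EGR2 was not tested.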

How the results depend on the processing

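Of the ratios of single genes recomputed under an alternative, 141 kept their direction and their side of the threshold, 9 turned and 6 kept only their direction. Without division by length (CPM), the ratios were 1.82 for IER2, 3.46 for IER3, 3.15 for IER5, 1.88 for SRF, -0.52 for ATF3 and -1.26 for EGR3 (edgeR adjusted p = 0.20), with 4 genes above and 4 below. Centred on all TUs, they were 0.18 for IER2, 0.39 for IER5, 0.63 for SRF and -0.68 for NR4A1, with 4 above and 4 below. Against a 2-fold difference, IER2 (-0.97), IER5 (-0.76), SRF (-0.51) and ATF3 (0.78, edgeR adjusted p = 0.92) were not called, with 0 above and 5 below. With the lengths shared with MANE Select and unchanged counts, added after seeing the data, ATF3 was at -1.34 and 0 genes lay above. Under the TPM thresholds 0 lay above, since ATF3, EGR3 and NR4A1 were not fitted. The cause of the other changes was not tested.

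With 1 library left out, no direction or call changed, and the ratios ranged from -9.09 to -8.89 for EGR1, -5.07 to -4.81 for NR4A2, -2.28 to -1.63 for IER3, -1.94 to -1.66 for NR4A1, -1.10 to -0.83 for IER2, -0.88 to -0.64 for IER5, -0.56 to -0.47 for SRF and 0.62 to 0.96 for ATF3. EGR3 ranged from -4.64 to -4.23 over 3 fits and had too few counts without RNA-seq replicate 1 or either PRO-seq library. Where 1 PRO-seq library remained, its spread was taken to be that of RNA-seq. With the replicate block, the ratios changed no call, from -8.95 for EGR1 and -4.22 for EGR3 to 0.84 for ATF3, with 1 gene above and 8 below.

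With 500 bp taken off, PRO-seq levels were 2658 TPM for EGR1, 78.7 for IER3, 3.19 for NR4A1, 121 for NR4A2, 9.47 for ATF3 and 103 for SRF. Over the 8 combinations of single libraries, the percentile among expressed mRNAs ranged from 0 to 0.0115 for EGR1, 0.309 to 3.28 for EGR3 (6 combinations), 22.4 to 31.7 for IER2, 7.65 to 16.3 for IER3, 26.7 to 36.1 for IER5, 8.38 to 19.1 for NR4A1, 0.321 to 0.882 for NR4A2, 57.7 to 74.5 for ATF3 and 35.5 to 39.5 for SRF. EGR3, NR4A1 and ATF3 do not themselves count as expressed. Over all TUs, 5530 lay above and 12043 below. They were 8817 and 7111 centred on all TUs, 4019 and 5066 under the TPM thresholds and 3331 and 8948 against a 2-fold difference. Depth limits EGR3 and NR4A1 most.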
